A study of Mus musculus with 33 samples.

Results

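The genes followed here are 8 genes of neutrophils, S100a8, S100a9, Ngp, Camp, Ltf, Lcn2, Mpo and Elane, across 7 groups of mouse thymus arrays. They were chosen by symbol, and every probe set that the platform annotation ties to them was taken, which gave 8 probe sets, 1 for each gene. These are 8 of the 13463 genes tested, and all 8 passed the filter on low signal. The 33 arrays held 1 RNA sample each from male C57BL/6J mice aged 4 to 6 weeks. Microdissected tissue gave whole cortex (n = 7), whole medulla (n = 7), and subcapsular, central and perimedullary cortex (n = 3 each). Cell sorting gave cortical thymocytes (n = 5), gated CD3-/lo, CD45+ and either CD90+ or CD117+, and medullary thymocytes (n = 5), gated CD3hi and CD45+. No group was treated or carried an altered gene. The titles call the samples of a group biological replicates. The labels do not say how many animals gave each sample or whether samples shared an animal. The p-values thus measure the spread between these samples, which may be in part technical.

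Neutrophils build their granules in order while they mature in bone marrow. The primary granule proteases and myeloperoxidase are made by promyelocytes, the proteins of secondary and tertiary granules by myelocytes and later forms, and the S100A8 and S100A9 proteins, which pair as calprotectin, fill the cytosol of late forms and mature cells. Transcripts of primary granule proteins are known to be low in mature neutrophils of blood and tissue. Some of these genes also have other sources, since barrier epithelia make lipocalin 2, lactoferrin and calprotectin, and monocytes make S100A8 and S100A9. Below, S100a8, S100a9, Ngp, Camp, Ltf and Lcn2 are called the late genes, and Mpo and Elane the primary granule genes.

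The values are MAS5 signals on a linear scale, scaled array by array to nearly the same trimmed mean (492 to 498). The array medians lay between 71.9 and 163, and log2 signals of arrays of 1 group correlated at 0.916 to 0.984 over all 45037 probe sets. The 9 arrays of the cortical parts stood apart from the other 24: the signal that 0.1% of probe sets exceeded was at most 19984 on them and at least 26209 elsewhere. The labels were checked on markers. All 10 cortical epithelial genes tested were above the array median on every whole cortex array. On every whole medulla array 8 of the 10 were above the median too. Their summed signal was 92442 to 120757 in whole cortex and 30210 to 37577 in whole medulla. All 10 medullary epithelial genes were above the median on every whole medulla array, and 4 on every whole cortex array. All 10 thymocyte genes were above it on every sorted cortical array, and 8 on every sorted medullary array. Counted separately in each sorted group, 11 of 14 macrophage genes were below the median on every array. Tissue and sorted cells were extracted with different RNA kits, and the kit cannot be told apart from the kind of sample. In RNA from bulk tissue, fewer cells of a type and less RNA per cell cannot be told apart either. For the fits, an offset of 26.2 was added before log2, so fold changes are on the log2(signal + offset) scale, which understates changes of dim genes. Signals of different probe sets are not compared as levels, because each probe set has its own response.

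S100a8 encodes the smaller chain of calprotectin, and its probe set (1419394_s_at) carries a suffix for probes shared by several transcripts. On the whole cortex arrays 1 to 7 its signal was 8228, 5650, 1036, 2372, 4043, 3391 and 9984, and on the whole medulla arrays 3968, 3412, 3438, 2019, 2076, 2768 and 3541. Subcapsular cortex gave 5902, 2975 and 5556, central cortex 4188, 1367 and 250, and perimedullary cortex 2217, 2117 and 686. All 23 tissue arrays were above their array median, and the whole medulla values lay inside the range of whole cortex. Sorted cortical thymocytes gave 453, 298, 99.6, 238 and 257, and sorted medullary thymocytes 47.9, 6.88, 6.68, 24.7 and 23.8. The 2 sorted groups did not overlap, and all 5 sorted medullary arrays were below their array median.

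S100a9, the partner chain of calprotectin (1448756_at), gave 7445, 4424, 631, 2472, 4899, 2909 and 7820 in whole cortex, and 1504, 1263, 1304, 1070, 1112, 1061 and 1581 in whole medulla. Its signals were 2471, 1007 and 1980 in subcapsular cortex, 1424, 407 and 96 in central cortex, and 774, 712 and 237 in perimedullary cortex. Whole cortex array 3 (631) was below every whole medulla array, and the other 6 whole cortex arrays were above all of them. The sorted cortical arrays gave 322, 155, 96.5, 157 and 194, and the sorted medullary arrays 22.8, 43.4, 3.01, 5.58 and 2.77. As for S100a8, the 2 sorted groups did not overlap.

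Ngp encodes neutrophilic granule protein, a cystatin-like protein of secondary granules (1418722_at). Whole cortex gave 1612, 1102, 494, 425, 907, 1167 and 3508, whereas whole medulla gave 297, 245, 210, 187, 148, 219 and 287. The lowest whole cortex array was thus above the highest whole medulla array. The subcapsular arrays gave 2828, 1551 and 2275, the central arrays 2575, 678 and 95.3, and the perimedullary arrays 1102, 1495 and 190. Sorted cortical thymocytes ranged from 90.4 to 370 with a median of 200, which overlapped whole medulla, and sorted medullary thymocytes ranged from 58.9 to 88.3.

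Camp encodes the cathelicidin antimicrobial peptide of secondary granules (1419691_at). Its whole cortex signals were 1334, 757, 181, 394, 877, 386 and 1129, and its whole medulla signals 347, 284, 268, 351, 175, 229 and 263. Of the 7 whole cortex arrays 6 were above every whole medulla array, and array 3 was again among the medullary values. Subcapsular cortex gave 951, 561 and 665, central cortex 978, 428 and 78.4, and perimedullary cortex 323, 528 and 186. The sorted cortical arrays lay between 27.2 and 117 and the sorted medullary arrays between 3.67 and 68.7.

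Ltf encodes lactoferrin, the iron-binding protein of secondary granules (1450009_at). It gave 477, 344, 159, 171, 319, 232 and 863 in whole cortex and 388, 465, 321, 354, 389, 323 and 378 in whole medulla, so the medullary arrays lay within the cortical range. The cortical parts gave 473, 285 and 334 (subcapsular), 352, 69.5 and 52.2 (central), and 186, 228 and 52.3 (perimedullary). All 10 sorted arrays were below their array median, at 4.26 to 75.

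Lcn2 encodes lipocalin 2, which binds bacterial siderophores (1427747_a_at). Whole cortex gave 512, 295, 57.4, 71.2, 223, 350 and 1085 and whole medulla 454, 360, 359, 370, 406, 453 and 688. Of the 7 whole cortex arrays 5 were below every medullary array, array 1 was among them and array 7 above all of them. The subcapsular arrays gave 317, 286 and 413, the central arrays 326, 56.8 and 2.56, and the perimedullary arrays 124, 198 and 40.6. Sorted cortical thymocytes lay between 42.5 and 103 and sorted medullary thymocytes between 2.22 and 27.9, with no overlap.

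Mpo, the myeloperoxidase of primary granules (1415960_at), gave 413, 309, 106, 525, 194, 281 and 501 in whole cortex and 244, 312, 209, 168, 207, 138 and 179 in whole medulla. Subcapsular cortex gave 506, 278 and 215, central cortex 188, 79.9 and 193, and perimedullary cortex 387, 45.8 and 295. The 2 sorted groups overlapped, at 59.9 to 96.1 (cortical) and 50 to 116 (medullary). Elane, the neutrophil elastase of primary granules (1422928_at), was above the array median on 11 of 33 arrays, the fewest of the 8. Its whole cortex signals were 201, 259, 98.9, 169, 19.5, 223 and 317, and its whole medulla signals 71.2, 132, 115, 25.4, 19.3, 48.7 and 15.8. The cortical parts gave 125, 189 and 117 (subcapsular), 62.9, 20.1 and 30.3 (central), and 166, 26.4 and 164 (perimedullary). No sorted array and no whole medulla array was above its median for Elane, so differences between those groups rest on signals in the lower part of the arrays.

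**Figure D1:**
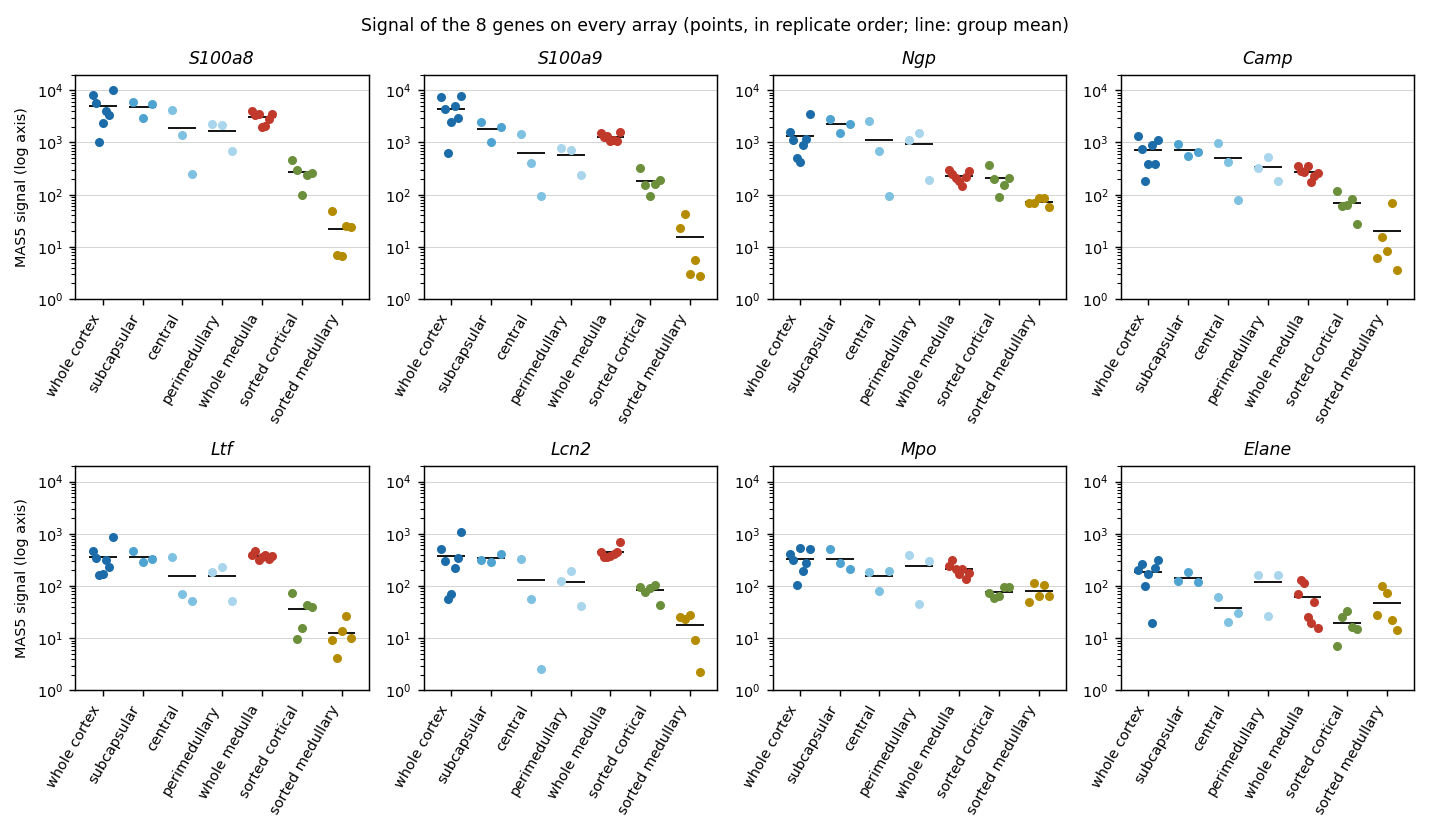
MAS5 signal (log axis) of the 8 genes on each of the 33 arrays, with 1 panel per gene; points are arrays in replicate order and lines are group means. Whole cortex S100a8 spans 1036 to 9984 while whole medulla spans 2019 to 3968, and the sorted groups lie lowest for most of the genes.

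In the order of group means, whole cortex or subcapsular cortex came first for S100a8, S100a9, Ngp, Camp, Mpo and Elane, and whole medulla came first for Ltf and Lcn2. S100a8 averaged 4958 ± 3209 (SD, n = 7) in whole cortex, 4811 ± 1599 (n = 3) in subcapsular cortex, 3032 ± 759 (n = 7) in whole medulla, 1935 ± 2030 (n = 3) in central cortex and 1673 ± 857 (n = 3) in perimedullary cortex. All neighbours among these 5 tissue groups overlapped, for S100a8 and for each of the other 7 genes. For Lcn2 the means were 441 ± 116 in whole medulla, 370 ± 353 in whole cortex and 339 ± 66.4 in subcapsular cortex.

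Upstream sequence is shown for all 8 genes, late genes first, because their values are set against each other array by array below. The 250 bases before the transcription start came from RefSeq (GRCm38.p6), which held all 8 genes, and are given 5′ to 3′ on the strand of the gene. C/EBP factors are known to drive secondary granule genes, and PU.1, an ETS factor, many myeloid genes. Capitals mark matches to TTGCNNAA (C/EBP-type), GAGGAAG (ETS-type) and TATAAA, on either strand, and no match overlapped another in these genes. The late genes are S100a8 (chr3:90668821-90669070, plus strand), S100a9 (chr3:90695722-90695971, minus strand), Ngp (chr9:110419558-110419807, plus strand), Camp (chr9:109849457-109849706, minus strand), Ltf (chr9:111019042-111019291, plus strand) and Lcn2 (chr2:32387740-32387989, minus strand). The primary granule genes are Mpo (chr11:87793534-87793783, plus strand) and Elane (chr10:79886062-79886311, plus strand).
S100a8: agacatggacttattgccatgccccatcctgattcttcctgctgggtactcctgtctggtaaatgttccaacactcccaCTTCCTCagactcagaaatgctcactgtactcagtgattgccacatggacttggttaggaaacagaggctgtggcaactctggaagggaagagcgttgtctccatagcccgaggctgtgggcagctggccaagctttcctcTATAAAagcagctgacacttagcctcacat
S100a9: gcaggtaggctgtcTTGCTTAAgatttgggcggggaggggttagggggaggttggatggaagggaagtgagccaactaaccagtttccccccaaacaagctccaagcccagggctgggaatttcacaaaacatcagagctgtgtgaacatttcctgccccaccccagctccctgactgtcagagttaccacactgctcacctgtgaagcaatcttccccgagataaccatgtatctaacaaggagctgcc
Ngp: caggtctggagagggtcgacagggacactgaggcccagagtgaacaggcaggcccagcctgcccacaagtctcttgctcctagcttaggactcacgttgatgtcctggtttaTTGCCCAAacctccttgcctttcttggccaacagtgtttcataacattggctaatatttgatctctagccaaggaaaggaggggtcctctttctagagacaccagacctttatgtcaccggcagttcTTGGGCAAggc
Camp: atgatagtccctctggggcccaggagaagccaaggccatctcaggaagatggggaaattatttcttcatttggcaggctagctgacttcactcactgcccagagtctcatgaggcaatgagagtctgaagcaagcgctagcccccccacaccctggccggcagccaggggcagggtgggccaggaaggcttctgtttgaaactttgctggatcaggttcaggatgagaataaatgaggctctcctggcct
Ltf: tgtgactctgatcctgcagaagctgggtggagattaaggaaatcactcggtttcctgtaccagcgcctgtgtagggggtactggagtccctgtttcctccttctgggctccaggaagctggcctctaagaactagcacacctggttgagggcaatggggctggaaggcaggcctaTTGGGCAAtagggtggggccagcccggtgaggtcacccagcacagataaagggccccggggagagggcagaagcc
Lcn2: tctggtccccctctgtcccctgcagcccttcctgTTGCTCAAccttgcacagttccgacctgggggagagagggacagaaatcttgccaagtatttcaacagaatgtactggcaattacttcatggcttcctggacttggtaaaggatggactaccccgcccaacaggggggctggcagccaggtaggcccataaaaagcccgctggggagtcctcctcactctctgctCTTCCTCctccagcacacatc
Mpo: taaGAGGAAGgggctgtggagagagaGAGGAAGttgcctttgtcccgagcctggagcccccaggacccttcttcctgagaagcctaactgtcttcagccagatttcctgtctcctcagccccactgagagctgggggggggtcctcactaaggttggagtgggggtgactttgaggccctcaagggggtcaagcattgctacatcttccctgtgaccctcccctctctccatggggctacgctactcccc
Elane: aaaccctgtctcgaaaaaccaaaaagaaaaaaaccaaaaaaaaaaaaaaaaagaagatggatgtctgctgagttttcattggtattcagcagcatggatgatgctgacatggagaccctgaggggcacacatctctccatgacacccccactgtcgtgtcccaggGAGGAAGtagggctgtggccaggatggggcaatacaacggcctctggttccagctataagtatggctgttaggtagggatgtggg
Of the 8 genes 4 (S100a9, Ngp, Ltf and Lcn2) held TTGCNNAA, against 9.6% of the 32851 RefSeq promoters of the same length. A further motif, GAGGAAG, was held by 4 of the 8 (S100a8, Lcn2, Mpo and Elane), against 10.6% of all promoters. TATAAA was found in S100a8, against 12.4%. The match nearest to a start was that of Ngp at -11, and Mpo held 2 ETS-type matches at -247 and -224. Camp held none of the 3 motifs. A match describes letters in this window and does not show that a factor binds there.

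In whole medulla, 4 of the 8 genes were lower than in whole cortex and none was higher, by limma across all genes (called at an adjusted p under 0.05 and a log2 fold change of at least 1). Among all genes tested, 5.38% were called lower and 18.5% higher in this comparison. Ngp fell most, by 2.12 on the log2 scale (SE 0.44, adjusted p = 8.9e-05), and was the only member whose arrays did not overlap; 10.9% of all genes were lower without overlap. S100a9 fell by 1.44 (SE 0.42, adjusted p = 0.0031). Elane fell by 1.23 (SE 0.37, adjusted p = 0.0047) and Camp by 1.10 (SE 0.37, adjusted p = 0.011). The Camp change dropped under the fold limit without whole cortex array 1 (-0.92) or array 7 (-0.96). With an offset of 105 neither Camp (-0.95) nor Elane (-0.75) reached it.

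The other 4 genes did not pass in this comparison. S100a8 had a log2 fold change of -0.43 (95% interval -1.29 to 0.42), Mpo -0.51 (-1.12 to 0.10), Ltf 0.22 (-0.42 to 0.86) and Lcn2 0.69 (-0.17 to 1.55). Lcn2 passed without whole cortex array 7, at 1.02 (adjusted p = 0.025). The median of the 8 fold changes was -0.81, beside 0.11 over all genes. Whole cortex and whole medulla arrays 1 to 5 and sorted medullary arrays 1 to 3 had a brighter upper tail than the others, above a limit of 42000 known from earlier work on these data. Within those arrays Ngp (-1.81), S100a9 (-1.27) and Camp (adjusted p = 0.025) were again called lower, Lcn2 was higher (1.03, adjusted p = 0.028) and Elane did not pass (-0.77, adjusted p = 0.19). Without those arrays only arrays 6 and 7 of whole cortex and of whole medulla remained. S100a9 (-1.86), Ngp (-2.89) and Elane (-2.38) were then lower, and Camp did not pass (-1.34, adjusted p = 0.13, limma). Lcn2 stood at -0.14 (SE 0.73, adjusted p = 0.88, limma), so its sign in this set was not resolved. The values of S100a9 and Ngp were negative and called in both sets.

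Cell type markers moved with the same comparison. Whole medulla arrays had a summed signal of 48637 to 60224 over 17 barrier epithelium genes, against 5228 to 7461 in whole cortex, and all 17 were called higher. Over 10 monocyte genes the sums were 25034 to 35772 against 9575 to 12112, with 5 called higher (Ccr2 at 2.76) and 1 lower (F13a1 at -2.15). The 10 thymocyte genes summed to 47720 to 63535 in medulla and 163184 to 247521 in cortex, and 7 were called lower. The part of these cells in the member values was not tested.

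**Figure D2:**
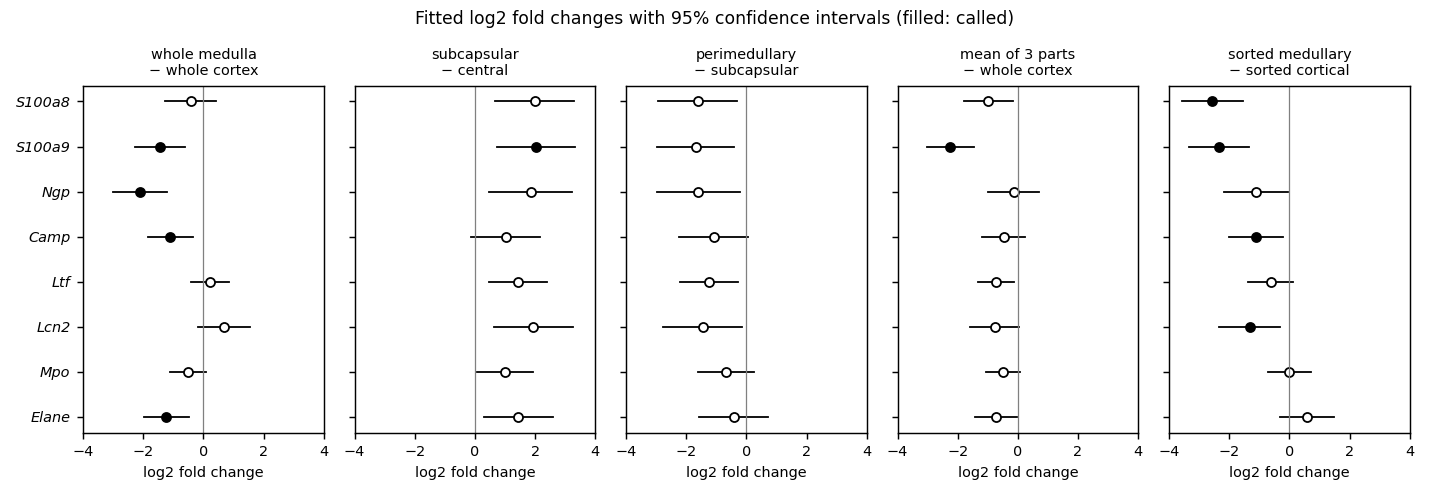
Fitted log2 fold changes of the 8 genes (points) with 95% confidence intervals (lines) in 5 comparisons; filled points passed an adjusted p of 0.05 with a log2 fold change of at least 1. In whole medulla against whole cortex Ngp lies at -2.12 and Lcn2 at 0.69, and in subcapsular against central cortex all 8 points lie above 0.

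Within the cortex, all 8 genes had higher mean log2 signals in subcapsular than in central cortex, and only S100a9 was called (2.02, SE 0.64, adjusted p = 0.044, limma), where 0.847% of all genes were called higher. The other late genes had log2 fold changes of 1.98 for S100a8 (adjusted p = 0.054), 1.94 for Lcn2 (0.061), 1.85 for Ngp (0.096), 1.43 for Ltf (0.062) and 1.02 for Camp (0.35). The primary granule genes stood at 1.44 (Elane) and 0.99 (Mpo), and for both of them the 3 subcapsular arrays were above the 3 central arrays; 21.0% of all genes were higher without overlap. The S100a9 call was lost in 6 of 13 other settings: with an offset of 6.55 (adjusted p = 0.068), no filter (0.055), the mean of probe sets (0.051), every probe set fitted (0.062), only the groups compared (0.078), and only the 9 arrays of the cortical parts fitted (0.071). In the last 2 of these Elane was called instead (adjusted p = 0.0065 and 0.039). Central arrays 1 and 3 lay on opposite sides, with log2 S100a8 signals of 12.04 and 8.11. Without array 1, 5 genes were called, with S100a8 at 2.90, S100a9 at 2.91, Ngp at 2.90, Ltf at 2.14 and Lcn2 at 2.89. Without array 3 none was called, with S100a8 at 0.93, S100a9 at 1.13, Ngp at 0.69, Camp at 0.12, Ltf at 1.01 and Lcn2 at 1.08. None was called either without subcapsular array 1 (S100a9 at 1.76), subcapsular array 3 (1.92) or central array 2 (2.04). The fit used 1 spread per gene for all 7 groups. The SD of log2 S100a9 signals was 1.78 in central cortex, 0.66 in subcapsular cortex and 0.23 in whole medulla. The SEs and p-values given here thus do not reflect the wider spread of central cortex.

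Perimedullary cortex had lower mean log2 signals than subcapsular cortex for all 8 genes, with a median difference of -1.35, beside -0.00 over all genes. No gene passed in limma (5 of 8 had an unadjusted p under 0.05), where 4.57% of all genes were called in either direction and 1.66% lower. The 3 perimedullary arrays lay below the 3 subcapsular arrays for each of the 6 late genes; 24.3% of all genes were lower without overlap. S100a9 had the smallest adjusted p (-1.69, SE 0.64, adjusted p = 0.067). Without perimedullary array 2, Ltf passed (-1.57, adjusted p = 0.049). Between perimedullary and central cortex no gene was called by limma and none had an unadjusted p under 0.05, where 1.31% of all genes were called higher and 0.0371% lower; the S100a8 difference was 0.36 (95% interval -0.95 to 1.67).

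The dissected parts and whole cortex can be set against each other as different dissections of the same tissue. The mean of the 3 parts was lower than whole cortex for S100a9, at -2.25 on the log2 scale (SE 0.39, adjusted p = 7.3e-06, limma), and this was the only member called, where 6.88% of all genes were called lower and 7.04% higher. S100a8 stood at -0.99 (SE 0.40, adjusted p = 0.032), just short of the fold limit, and passed it when any of 9 arrays was left out, at -1.03 to -1.31. The count of called genes rose from 1 to 3 (S100a8, S100a9 and Lcn2) without central array 1, whole cortex array 3 or whole cortex array 4. Ngp stood at -0.14 (95% interval -0.98 to 0.71). Arrays of the parts differ from whole cortex in their upper tail as given above, and the part of that difference in these values was not tested.

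Sorted medullary thymocytes were lower than sorted cortical thymocytes in 4 of the 8 genes, where 6.28% of all genes were called lower (limma). S100a8 fell by 2.56 on the log2 scale (SE 0.50, adjusted p = 6.5e-05) and S100a9 by 2.35 (SE 0.49, adjusted p = 1.8e-04). Lcn2 fell by 1.32 (SE 0.50, adjusted p = 0.033) and Camp by 1.12 (SE 0.44, adjusted p = 0.039). The S100a8 and S100a9 calls held with each of the 10 sorted arrays left out in turn. Camp lost its call without any of cortical arrays 1 to 4 or medullary arrays 1, 2, 3 and 5 (-0.96 to -1.14), and Lcn2 without any of cortical arrays 1 to 4 or medullary arrays 4 and 5 (-1.17 to -1.32). With an offset of 105 neither passed, with Camp at -0.48 and Lcn2 at -0.61, and Camp was also lost with no filter (adjusted p = 0.05), with array weights (0.094) and without the 13 arrays with the brighter upper tail (0.33). Ngp stood at -1.10 (adjusted p = 0.095) although its arrays did not overlap; 16.3% of all genes were lower without overlap. Mpo stood at 0.00 (95% interval -0.72 to 0.73) and Elane at 0.58 (-0.31 to 1.48).

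The compartment difference itself differed between tissue and sorted cells for 3 genes. The difference of medulla minus cortex was higher in tissue than in sorted thymocytes for S100a8, by 2.13 (SE 0.65, adjusted p = 0.011), and for Lcn2, by 2.01 (SE 0.65, adjusted p = 0.017). It was lower for Elane, at -1.81 (SE 0.58, adjusted p = 0.015, limma). In tissue alone neither S100a8 (-0.43) nor Lcn2 (0.69) was called, and in sorted cells they stood at -2.56 and -1.32. Every sorted medullary array was below its median for both genes, where the offset limits fold changes. Elane stood at -1.23 in tissue and 0.58 in sorted cells. Among all genes 12.6% were called higher and 2.22% lower in this test. Leaving out the 13 arrays with the brighter upper tail kept only sorted medullary arrays 4 and 5 and arrays 6 and 7 of each whole compartment. In that set only Elane passed (-2.37, limma), with S100a8 at 1.54 (adjusted p = 0.31) and Lcn2 at 1.60 (adjusted p = 0.23). With an offset of 105 neither S100a8 (1.07, adjusted p = 0.17) nor Lcn2 (1.09, adjusted p = 0.055) passed.

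All 8 genes were higher in whole cortex than in sorted cortical thymocytes, where 9.57% of all genes were called higher. The differences ran from 1.42 for Lcn2 (SE 0.46, adjusted p = 0.013) to 4.13 for S100a9 (SE 0.46, adjusted p = 3.0e-09). These comparisons share arrays with those between compartments. In whole medulla, 7 of the 8 were higher than in sorted medullary thymocytes, where 19.3% of all genes were called higher. S100a8 differed by 6.01 (SE 0.46, adjusted p = 1.2e-13), S100a9 by 5.03 (SE 0.46, adjusted p = 8.7e-12) and Ngp by 1.32 (SE 0.48, adjusted p = 0.022). The Ngp call was lost with an offset of 105 (0.88, adjusted p = 0.074), quantile normalization (0.96, 0.079), array weights (1.30, 0.073) and without the 13 arrays (1.51, 0.2). Mpo stood at 1.15 (adjusted p = 0.0037) and lost its call with that offset (0.75), with quantile normalization (0.77) and without the 13 arrays (0.76), so that 5 genes were called in each of these 3 settings. Elane did not pass (0.20, 95% interval -0.63 to 1.03). Sums of 14 macrophage genes moved in the same direction, at 17004 to 21857 in whole cortex and 440 to 571 in sorted cortical cells.

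In the cortical groups the order of the arrays was largely shared among the late genes. The highest signal over the lowest was 5.41 (Ltf) to 18.9 (Lcn2) in whole cortex and 6.74 (Ltf) to 127 (Lcn2) in central cortex. The value of 127 rests on 1 Lcn2 signal, 2.56 on central array 3, below that array's lower quartile of 22.5. In subcapsular cortex the highest over the lowest was only 1.45 (Lcn2) to 2.45 (S100a9), and in whole medulla 1.45 (Ltf) to 2.01 (Camp). Sorted medullary thymocytes, all below the array medians, had 1.5 (Ngp) to 18.7 (Camp). In central cortex array 1 was the highest and array 3 the lowest for 6 of 6 late genes. In subcapsular cortex array 2 was the lowest for 6 of 6, and in perimedullary cortex array 3 was. In whole cortex array 7 was the highest for 5 of 6 and array 3 the lowest for 5 of 6, and among the sorted cortical arrays array 1 was the highest for 5 of 6. No array of whole medulla or of sorted medullary thymocytes was the highest for more than 2 of 6, but sorted medullary array 5 was the lowest for 4 of 6. The array medians shared the order of the late genes in some groups. In whole cortex array 7 had the highest median (118) and array 3 the lowest (93.3). Central arrays 1 to 3 had medians of 85.7, 83.5 and 83.1, and perimedullary array 3 the lowest of its group (90.8). In other groups they departed from it, with subcapsular array 3 the lowest (78.8) and sorted cortical array 4 the highest (90.3). The part of the array medians in the shared order and in the correlations below was not tested. The primary granule genes followed the order of the late genes in part. Whole cortex array 7 was the highest for Elane (317) and array 3 the lowest for Mpo (106), central array 1 was the highest for Elane (62.9), and subcapsular array 1, the highest for 5 of 6 late genes, was the highest for Mpo (506). Other arrays departed from it: subcapsular array 2 was the highest for Elane (189), central array 3 was the highest for Mpo (193), perimedullary array 2, the highest for 4 of 6 late genes, was the lowest for both Mpo (45.8) and Elane (26.4), and whole cortex array 5 was the lowest for Elane (19.5) with an S100a9 signal of 4899.

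**Figure D3:**
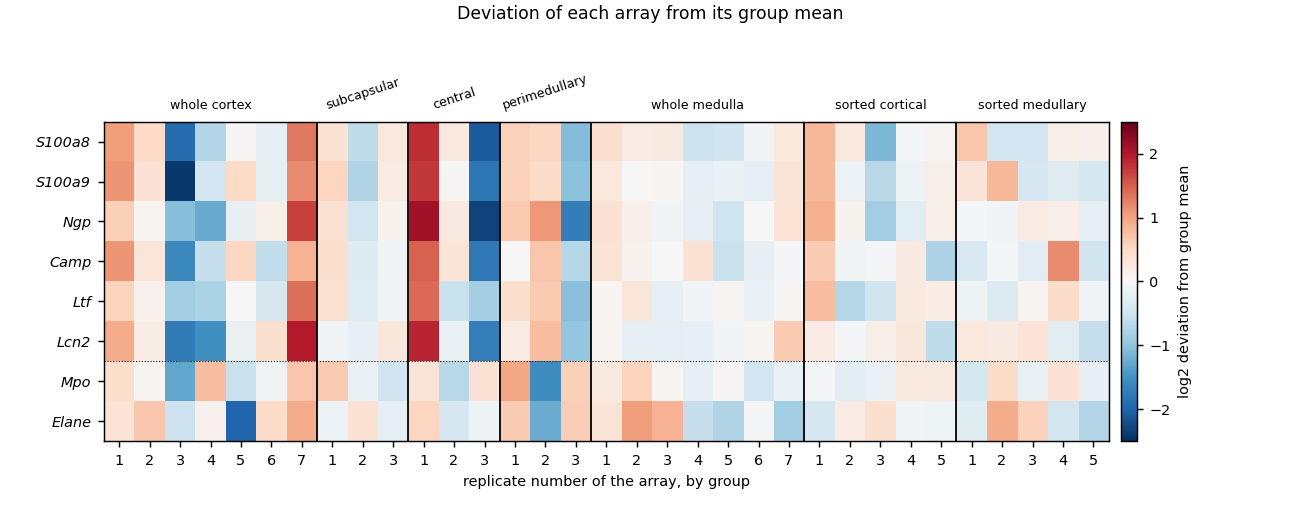
Deviation of log2(signal + offset) from the group mean for each gene (rows) on each of the 33 arrays (columns, by group and replicate number); the dotted line separates the 6 late genes from Mpo and Elane. Central array 1 is high and central array 3 low for 6 of 6 late genes, and perimedullary array 2 is low for Mpo and Elane only.

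The spread differed between the compartments. The SD of log2 signals over 7 arrays was 1.11 in whole cortex and 0.39 in whole medulla for S100a8, 1.23 and 0.23 for S100a9, and 1.32 and 0.31 for Lcn2. The ratio of the SDs was 5.39 for S100a9, 4.62 for Ltf, 4.2 for Lcn2 and 1.27 for Elane, beside a median of 1.26 over all genes. In whole cortex the SD of S100a9 and that of Lcn2 were larger than those of 99.9% of genes. No test was made of these ratios.

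Correlations were tested within whole cortex and within whole medulla, the groups with at least 6 arrays, by exact permutation tests (two-sided) with Benjamini-Hochberg adjustment over 72 relations. In whole cortex the 15 pairs of late genes had Pearson r from 0.75 to 0.98, and 7 pairs passed (1 pair by Spearman's rho). S100a8 and S100a9 had r = 0.97 (exact p = 6.0e-04, adjusted p = 0.019) and rho = 0.96 (exact p = 0.0028, adjusted p = 0.05), and r was 0.93 without the 2 arrays farthest from the S100a8 median. Ngp and Lcn2 had r = 0.98 (exact p = 6.0e-04, adjusted p = 0.019), rho = 0.96 (exact p = 0.0028, adjusted p = 0.05) and r = 0.99 without 2 arrays. S100a9 and Camp had r = 0.97 (exact p = 7.9e-04, adjusted p = 0.019), rho = 0.93 (exact p = 0.0067, adjusted p = 0.097) and again r = 0.97 without 2 arrays. The 12 pairs of a late and a primary granule gene ranged from 0.15 to 0.70, and none passed (lowest adjusted p = 0.25, exact permutation).

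In whole medulla the 15 late pairs ranged from -0.09 to 0.88 and none passed by the exact permutation test (lowest adjusted p = 0.063). The difference between the compartments in these correlations was not tested, and the range of the late genes was narrower in medulla. The mean of 5 erythroid genes had r from 0.03 to 0.75 with the 8 genes in whole cortex and from 0.06 to 0.70 in whole medulla, and none of the 16 passed (lowest adjusted p = 0.2, exact permutation). The 5 were Hba-a2, Hbb-b2, Alas2, Car2 and Klf1. The hemoglobin gene Hba-a1 was below the filter, and Hbb-b1, Hbb-bs and Hbb-bt were not analysed here. By limma, 2 of the 5 were lower in perimedullary than in subcapsular cortex (1.66% of all genes). Likewise 2 of the 5 were lower in the cortical parts than in whole cortex (6.88% of all genes). None was higher in these comparisons. The part of erythroid cells in the member values was not tested.

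Over all 33 arrays, deviations from group means were correlated as a description. The late genes correlated with each other at 0.753 or more on this scale (S100a8 with S100a9 at 0.910, Camp with Lcn2 at 0.753). With Mpo they correlated at 0.008 (Ngp) to 0.273 (S100a9), and with Elane at 0.016 (Camp) to 0.192 (Lcn2), while Mpo and Elane correlated at 0.596. The points share arrays and groups, and batches are not given in the labels. Outside the 8, the gene nearest to each of the 6 late genes was Chil3, a chitinase-like protein of myeloid cells, at 0.752 (Camp) to 0.880 (Ngp). Wfdc21 came next for S100a8 (0.768) and Camp (0.705), and Hadha for S100a9 (0.734). Atxn7l3 came next for Ngp (0.758), Ltf (0.641) and Lcn2 (0.765, beside 0.765 for Chil3). Unlike the late genes, Atxn7l3 was brighter in sorted cortical thymocytes (2360 ± 112) than in whole cortex (1656 ± 377). For Mpo the nearest was Prtn3, which encodes proteinase 3 of primary granules (0.769), followed by Trim47 (0.724) and Ms4a3 (0.712), and for Elane the nearest was Trim47 (0.744). On log2 signals over the 33 arrays, where group differences enter, Prtn3 was nearest to Mpo (0.828) and Elane (0.770), and Mfsd12 was nearest to Ngp (0.846).

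The pairing of genes also shifted between groups. Since probe sets differ in response, the difference of 2 log2 signals on 1 array is read here only for how it changes between groups. For Lcn2 minus Ngp it was -1.93 ± 0.37 (SD, n = 7) in whole cortex, at -2.64 to -1.61, and 0.88 ± 0.30 (n = 7) in whole medulla, at 0.51 to 1.31. The cortical parts gave means of -2.46 to -2.68. The whole medulla arrays did not overlap those of any other group. For S100a8 minus S100a9 it was 0.20 ± 0.31 (n = 7) in whole cortex, and 1.42 ± 0.15, 1.47 ± 0.26 and 1.49 ± 0.05 (n = 3 each) in subcapsular, central and perimedullary cortex. Whole medulla gave 1.21 ± 0.23 (n = 7), so whole cortex (-0.28 to 0.69) overlapped neither its own dissected parts nor the medulla. These pairs were chosen after their values were seen and were not tested.

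**Figure D4:**
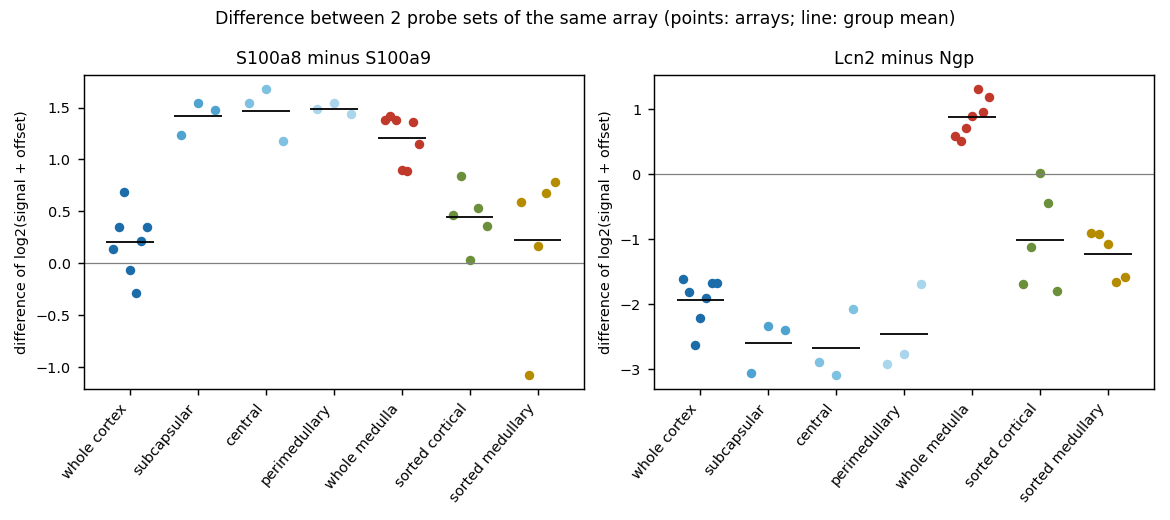
Difference of log2(signal + offset) between a pair of probe sets on the same array, S100a8 minus S100a9 (left) and Lcn2 minus Ngp (right), by group; points are arrays and lines group means. Whole cortex lies at -0.28 to 0.69 on the left, below the 9 arrays of the cortical parts, and whole medulla at 0.51 to 1.31 on the right, above all other groups.

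Other genes of neutrophils were read from fixed lists. Of the primary granule genes, Prtn3 and Ctsg (cathepsin G) were the 2 that are not members. Both were lower in whole medulla than in whole cortex, by limma, Ctsg at -1.75 (SE 0.36, adjusted p = 7.6e-05) and Prtn3 at -1.44 (SE 0.33, adjusted p = 3.1e-04). With Elane this made 3 of the 4 primary granule genes lower. Prtn3 was also higher in subcapsular than in central cortex (2.01, SE 0.51, adjusted p = 0.0099), at 183 ± 71.3 against 25.4 ± 16.3 (n = 3 each).

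Of 6 further secondary and tertiary granule genes tested, 2 were higher in whole medulla and none lower. Olfm4, which encodes olfactomedin 4, was one of them (adjusted p = 8.6e-19, limma), at 1347 ± 362 in whole medulla and 15.9 ± 8.66 in whole cortex (n = 7 each). Mmp9, a gelatinase, differed by 1.20 (SE 0.17, adjusted p = 9.6e-08). Chil3 was not called and averaged 419 ± 246 in whole cortex and 358 ± 112 in whole medulla.

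Of 18 further genes of the neutrophil surface and cytosol 9 were tested, of which 3 were higher in whole medulla and 1 lower. Hdc, the histamine-forming enzyme, stood at 5.90, Mcemp1 at 2.63, Stfa3 at 2.13 and Padi4, a peptidylarginine deiminase, at -2.44. Padi4 was at 994 to 1118 in sorted cortical thymocytes. Csf3r, the G-CSF receptor, was named after its values were seen: its means ran from 38.1 in sorted cortical thymocytes to 127 in whole medulla, and in whole cortex it lay at 9.9 to 114. Cxcr2, Clec4d and Clec4e were below the filter, and Ly6g was not analysed here.

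Most of the other S100 genes were called higher in whole medulla, where S100a8 was not called and S100a9 was lower. Of 11 tested, 7 were higher in whole medulla than in whole cortex and none was lower, with S100a4 at 4.56, S100a14 at 4.04, S100g at 3.40 and S100a6 at 2.93 (limma). Of the granulopoiesis regulators tested, 5 of 7 were higher in whole medulla, among them Cebpa (1.81) and Cebpd (1.46), and Gfi1, a repressor that thymocytes also express, was lower (-2.52). Its signal was 4591 to 5159 in sorted cortical thymocytes.

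Genes that act on neutrophils or on the members were read last. Of the chemoattractant genes 2 of 3 were higher, Cxcl2 at 3.87 and Cxcl3 at 2.69. Of the protease inhibitors 6 of 7 were higher, with Wfdc18 at 7.55 and Serpinb1a, an inhibitor of neutrophil elastase, at 4.64. Of 11 genes for receptors or binding partners of the members, 4 were higher, with a median log2 fold change of 0.07 beside 0.11 over all genes; they included Ager (1.92), which encodes the receptor RAGE for S100 proteins, and Slc22a17 (1.08), a lipocalin 2 receptor. Among all genes 18.5% were called higher in whole medulla, and these lists were chosen with earlier results of these data known.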

How the data were processed

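RNA of 33 samples was hybridised to Affymetrix mouse arrays, 1 sample per array, and groups were taken from the sample titles. The deposited values are MAS5 signals (intensity on a linear scale), made with Affymetrix Expression Console 1.0, per the submitters' processing notes; background settings, batches and scan dates are not given in the sources used here. Of 45037 probe sets, 34945 had 1 gene symbol, 932 several and 9160 none in the platform annotation. A probe set was kept if its signal exceeded the array median on 3 or more arrays (30045 probe sets, 24883 with 1 symbol). The brightest one stood for each gene (13463 genes). An offset of 26.2, taken from the lower quartiles of the 33 arrays as their median, was added before log2.

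All 33 arrays were fitted with 7 group means in limma 3.58.1 (R 4.3.3; lmFit, contrasts, eBayes with trend; 26 residual degrees of freedom), and p-values were adjusted by Benjamini-Hochberg over all genes. A gene was called at an adjusted p under 0.05 and a log2 fold change of at least 1 in either direction. The fit was tested on simulated data: for whole medulla against whole cortex, run on 13463 genes, 97 of 100 genes changed by 1.5 (log2) and 100 of 100 changed by 3 were called. The simulated noise of a gene had the same spread in all groups, while the SD of S100a9 was 1.23 in whole cortex and 0.23 in whole medulla. Comparisons with 3 arrays a group were not tested in this way. The recovered shares thus do not carry over to genes of unequal spread or to the cortical parts. Correlations used exact permutation in scipy 1.17.1 (Python 3.11.15). The precision is limited by the number of arrays, and no 2 arrays were identical.

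The 8 genes and the 19 gene lists (215 genes, 159 tested) were chosen with earlier results of these data known, as was the limit of 42000 on the upper tail. Genes named beside the 8 are, of each list, at most the 4 called genes with the largest change in a comparison, or else the 1 gene of smallest p, and for each of the 8 the 3 nearest genes by correlation. The alternatives were other offsets, quantile normalization, filters, choices of probe set, groups in the fit, a replicate block, array weights, sets of arrays and leaving out each array.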

Additional observations from a re-analysis of the deposited data

Results flagged for a closer look

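Camp in sorted medullary thymocytes had 1 array, replicate 4, at a signal of 68.7, far above the other 4 arrays (3.67 to 15.2). Lcn2 in whole medulla had 1 array, replicate 7, at 688, above the other 6 (359 to 454). These were 2 of 32 sets of arrays examined for a sample far from the others, and chance alone flags about 1 in 20.

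For 3 genes the difference between medulla and cortex was not the same in tissue as in sorted thymocytes, by limma's test of the difference. It was higher in tissue for S100a8 (2.13 on the log2 scale, adjusted p = 0.011) and for Lcn2 (2.01, adjusted p = 0.017). For Elane it was lower in tissue (-1.81, adjusted p = 0.015). The difference in tissue alone was not called for S100a8 (-0.43) or Lcn2 (0.69).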

How the results depend on the processing

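Each of the 72 fold changes (8 genes in 9 comparisons) was recomputed under alternatives, which gave 1765 values: 1612 kept their direction and their side of the threshold, 46 lost the call, 66 gained one and 41 changed sign. The comparisons within the cortex rest on 3 arrays a group; the cause of these moves was not tested.

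The count of genes called between subcapsular and central cortex (1) became 0 with a smaller offset (6.55), with no filter, with the mean of probe sets and with every probe set fitted, 2 with a larger offset (105), 4 with a stricter filter (which drops Elane) and without the 13 arrays with the brighter tail, and 7 with array weights. Perimedullary against subcapsular cortex (0) became 1 with the larger offset, with quantile normalization and without the 13 arrays, and 5 with only the groups compared or array weights. The parts against whole cortex (1) became 2 with the smaller offset and 5 without the 13 arrays. Whole medulla against sorted medullary cells (7) had 5 calls with the larger offset, with quantile normalization and without the 13 arrays, and 6 with array weights. With the larger offset, whole medulla against whole cortex had 2 calls, the sorted groups 2 and the difference of differences 1. With plain probe set suffixes only, which drops S100a8 and Lcn2, the last 2 had 2 and 1, and without the 13 arrays the difference of differences had 1. The count of pairs that passed by Pearson r (7) was 7 with the smaller offset and 9 with quantile normalization.

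Replicate numbers do not mark shared animals in the labels, and same-numbered arrays deviated together only weakly (r -0.08 to 0.26). With the replicate number as a block, the calls were 5 for subcapsular against central cortex, 4 for perimedullary against subcapsular, 2 for the parts against whole cortex, 5 for the sorted groups and the same number as without it in the other comparisons.

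Leaving out each array gave 3 to 4 calls for whole medulla against whole cortex, 2 to 4 for the sorted groups, 3 for the difference of differences, 0 to 5 for subcapsular against central, 0 for perimedullary against central, 0 to 1 for perimedullary against subcapsular, 8 and 7 for tissue against sorted cells, and 1 to 3 for the parts against whole cortex.

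The values that changed sign had not been called. In the difference of differences S100a9 became -0.17 with the larger offset, and Camp (0.02) became -0.47 with the larger offset, -0.10 with quantile normalization, -0.30 with array weights and -0.56 without the 13 arrays. In whole medulla against whole cortex Ltf became -0.09 with quantile normalization and -0.35 without the 13 arrays, and Lcn2 -0.14 without them. Elane became -0.21 (quantile normalization) and -0.01 (within the 13 arrays) for whole medulla against sorted medullary cells, and -0.01 between the sorted groups without the 13. Ngp became 0.02 for the parts against whole cortex with array weights. With an array left out, perimedullary against central cortex ranged from -0.69 to 1.28 for S100a8, -0.56 to 1.22 for S100a9, -0.91 to 1.30 for Ngp, -0.97 to 0.66 for Camp, -0.23 to 0.90 for Ltf, -0.38 to 1.42 for Lcn2 and -0.17 to 1.09 for Mpo. Perimedullary against subcapsular cortex ranged from -1.16 to 0.10 for Mpo and -0.74 to 0.19 for Elane, the parts against whole cortex from -0.49 to 0.25 for Ngp, and the difference of differences from -0.24 to 0.32 for Camp.

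The split of arrays at the largest gap in the upper tail separated the 9 arrays of the cortical parts from the other 24, so it gave no value for the parts against whole cortex. Sorted medullary signals of the late genes lay below the array medians, where the offset limits fold changes. So did Elane in whole medulla, central cortex and both sorted groups. By contrast S100a8, S100a9 and Ngp were above the median on 5 of 5 sorted cortical arrays, and Elane on 6 of 7 whole cortex arrays.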
